A study of Homo sapiens with 65 samples.

Results

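The 37 genes that the human mitochondrial genome encodes were followed through the differentiation of embryonic stem cells towards endothelium, blood and endoderm. The set was all genes of chromosome M whose GENCODE 29 symbol begins with MT-, and it held 37 of the 58302 gene identifiers in the count table: 13 protein-coding genes, 2 ribosomal RNA genes and 22 transfer RNA genes. This rule uses no measured value, and all 37 passed the filter on low counts in each model. The study sequenced RNA of H9 cells, an established human embryonic stem cell line, in 65 libraries. The labels give the molecule as total RNA and name TruSeq, without saying how RNA was selected. Of 5 nuclear-encoded RNAs that carry no poly(A) tail, RN7SL1 and RN7SL2 averaged below 1 CPM (counts scaled to library totals of 1000000) in every group. From 1 to 3 of the 5 reached 1 CPM on average in each group, and the 5 summed to 1.73 to 40.6 CPM in a library. What the libraries retained of rRNAs and tRNAs is therefore not known. Every library came from H9 cells carrying the reporters SOX17 mCHERRY/w and RUNX1C GFP/w, and the knockout (KO) cells also lacked the DNA binding domain of RUNX1 on both alleles (RUNX1 -/-), while cells with intact RUNX1 are called WT here. For KO cells at days 2 and 4 the sample titles say KO although the genotype field does not list the deletion, and the grouping follows the titles.

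In the mesoderm protocol, cells in STAPEL medium received BMP4, activin A, VEGF, SCF and FGF2 up to day 4, with SB431542, an inhibitor of activin-type receptors, and CHIR 99021, an activator of Wnt signalling, added from day 2 to day 4, and then VEGF, SCF, FGF2 and IGF2. KO and WT cells were taken unsorted at days 0, 2 and 4, with 4 libraries per genotype and day. At day 7, CD34-positive CD43-negative cells were sorted into SOX17-positive cells (4 KO and 4 WT libraries) and SOX17-negative cells (3 KO and 4 WT libraries). At day 12 the CD34-positive gates were SOX17-negative CD43-positive (3 WT libraries), SOX17-positive CD43-positive (2 WT libraries), SOX17-positive CD43-negative (4 KO and 4 WT libraries) and SOX17-negative CD43-negative (1 KO library). In the endoderm protocol, unsorted WT cells were taken at days 0, 2, 4 and 7, with 3 libraries a day, after activin A with CHIR and the kinase inhibitor PI-103 at the start and activin A with DMH-1, an inhibitor of BMP receptors, afterwards. CD34 marks endothelial and early blood cells, CD43 marks cells committed to blood, and SOX17 is a transcription factor of definitive endoderm and of arterial endothelium. The number of KO clones and the origin of the replicates (separate cultures or not) are not stated in the labels, and p-values below therefore reflect how far these libraries vary.

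The mitochondrial genome is a small circle present in many copies per cell. Both of its strands are transcribed as long precursors, which are cut into single RNAs mostly at the tRNA genes that lie between the mRNA and rRNA genes. The mRNAs encode core subunits of the respiratory chain: MT-ND1 to MT-ND6 and MT-ND4L in complex I, MT-CYB in complex III, MT-CO1 to MT-CO3 in complex IV and MT-ATP6 and MT-ATP8 in complex V. MT-RNR1 and MT-RNR2 give the small and large ribosomal RNAs of the mitochondrial ribosome, and the tRNAs serve the translation of the mRNAs inside the organelle. All other subunits of these complexes, the ribosomal proteins, and the polymerase POLRMT with its factor TFAM come from nuclear genes. Pluripotent cells are known for a largely glycolytic metabolism, and endothelial cells also rely much on glycolysis.

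The genes overlap and adjoin one another, which bears on what a count can tell. The sequences below are those of GENCODE 29 transcripts on GRCh38, all on chromosome M, written 5′ to 3′ on the gene's own strand. MT-TF, MT-TV and MT-TT are shown because their counts differed most between CD43-positive SOX17-negative cells and CD43-negative SOX17-positive cells at day 12; MT-TF and MT-TV flank MT-RNR1, and MT-TT follows MT-CYB.
MT-TF, phenylalanine tRNA, chrM:577-647, plus strand: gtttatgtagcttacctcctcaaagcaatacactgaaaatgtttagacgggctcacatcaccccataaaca
MT-TV, valine tRNA, chrM:1602-1670, plus strand: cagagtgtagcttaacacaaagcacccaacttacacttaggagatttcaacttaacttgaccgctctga
MT-TT, threonine tRNA, chrM:15888-15953, plus strand: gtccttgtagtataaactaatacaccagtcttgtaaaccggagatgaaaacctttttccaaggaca

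MT-TC and MT-TY are shown because their counts were nearly identical in every library. They lie next to each other on the minus strand and share 1 base, at position 5826, which is in capitals at the start of MT-TC and at the end of MT-TY.
MT-TC, cysteine tRNA, chrM:5761-5826, minus strand: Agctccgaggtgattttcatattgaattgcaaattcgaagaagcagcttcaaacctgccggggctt
MT-TY, tyrosine tRNA, chrM:5826-5891, minus strand: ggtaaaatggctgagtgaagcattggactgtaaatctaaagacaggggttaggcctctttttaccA

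In 65 of 65 libraries the counts of MT-TC and MT-TY were within 1% of each other, with a difference of at most 16 counts at levels of 528 to 4915 counts. Reads of these 2 genes therefore cannot be told apart, and their results amount to 1 measurement. In the counts of members called below, both genes are still counted separately. The overlapping ends of MT-ATP8 and MT-ATP6 and of MT-ND4L and MT-ND4 are shown next because members of each pair moved together. The 46 bases that MT-ATP8 and MT-ATP6 share (positions 8527 to 8572) and the 7 bases that MT-ND4L and MT-ND4 share (positions 10760 to 10766) are in capitals, with 30 bases on either side, and each overlap begins with the start codon of the downstream gene.
MT-ATP8 to MT-ATP6, chrM:8497-8602, plus strand: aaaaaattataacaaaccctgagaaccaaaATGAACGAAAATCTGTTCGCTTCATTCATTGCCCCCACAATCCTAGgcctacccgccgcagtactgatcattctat
MT-ND4L to MT-ND4, chrM:10730-10796, plus strand: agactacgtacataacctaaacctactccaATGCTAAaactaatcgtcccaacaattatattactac

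The run of MT-TH, MT-TS2 and MT-TL2 is shown because the 3 tRNAs, for histidine, serine and leucine, adjoin without a spacer between MT-ND4 and MT-ND5 and had closely matching profiles. MT-TS2 is in capitals.
MT-TH to MT-TL2, chrM:12138-12336, plus strand: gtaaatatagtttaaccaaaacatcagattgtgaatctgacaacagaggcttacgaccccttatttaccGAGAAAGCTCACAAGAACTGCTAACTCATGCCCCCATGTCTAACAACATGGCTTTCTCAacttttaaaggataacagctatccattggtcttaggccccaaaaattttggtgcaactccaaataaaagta

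Libraries held 10366048 to 19081031 counts, of which 431251 to 1468179 fell on the 37 genes, so counting error was small for the mRNAs and rRNAs. It was larger for the rarest tRNAs, with a mean of 19.9 counts a library for MT-TM, the initiator and elongator methionine tRNA, 61.5 for MT-TQ, 64.3 for MT-TD and 86.9 for MT-TI, and it also touched MT-TF, with a mean of 130.6 and a lowest count of 6. The table also held 407 nuclear pseudogene copies of these genes, which together took 0.135 to 0.378% as many counts as the members. Marker genes matched the sorted populations: the 7 blood genes summed to 1087 to 1385 CPM in CD43-positive SOX17-negative cells, 687 to 859 in CD43-positive SOX17-positive cells and 23.6 to 38.6 in WT CD43-negative SOX17-positive cells at day 12, where GATA1, GFI1B and PTPRC were below 1 CPM. The endothelial genes summed to 333 to 982, 7190 to 7362 and 12596 to 14930 CPM in the same populations. One library stood apart: WT SOX17-negative replicate 4 at day 7 had 23.8 rRNA counts per 100 mitochondrial mRNA counts, against 12.8 to 13.2 in the other 3 of its group, and an endothelial sum of 8242 against 11507 to 14324 CPM. In SOX17-positive cells of day 7, replicate 4 also had the highest rRNA ratio. It was 19.7 in WT (others 12.9 to 13.2) and 18.8 in KO cells (others 13.7 to 14.1). KO SOX17-negative replicate 3 had 127346 MT-RNR2 counts, against 88678 and 94598 in replicates 1 and 2. Its MT-CO1 counts were 152631, against 146592 and 152570. All these replicate 4 libraries and KO SOX17-negative replicate 3 bear consecutive numbers in the titles. CPM below are plain shares of all counts times 1000000, while fold changes are log2 values scaled by the trimmed mean of M-values (TMM), given with their standard error (SE), and adjusted p-values are those of edgeR's quasi-likelihood test with Benjamini-Hochberg adjustment over all genes tested, with a threshold of 0.05.

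The mitochondrial genes took their largest share of counts in the CD43-positive SOX17-negative cells of day 12. The 37 genes held 8.85, 8.37 and 8.73% of all counts in the 3 CD43-positive SOX17-negative libraries and 7.23 and 6.46% in the 2 CD43-positive SOX17-positive libraries, against 4.47, 5.24, 4.25 and 4.31% in the 4 WT CD43-negative SOX17-positive libraries. The order of the 3 groups held without overlap. All other groups lay between 3.44 ± 0.56% (SD, n = 4) in WT cells at day 0 and 6.19 ± 0.67% (SD, n = 4) in WT SOX17-negative cells at day 7, and each of them overlapped its neighbours in the order of the means. Only the CD43-positive SOX17-negative group stood clear of the group next to it. The lone day 12 library of KO cells negative for SOX17 and CD43 had 5.14% (95% Wilson interval 5.13 to 5.15, counting error only). Adding the pseudogene copies moved no group by more than 0.02 percentage points. In bulk libraries of this kind, more cells of one type and more RNA per cell cannot be told apart.

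**Figure D1:**
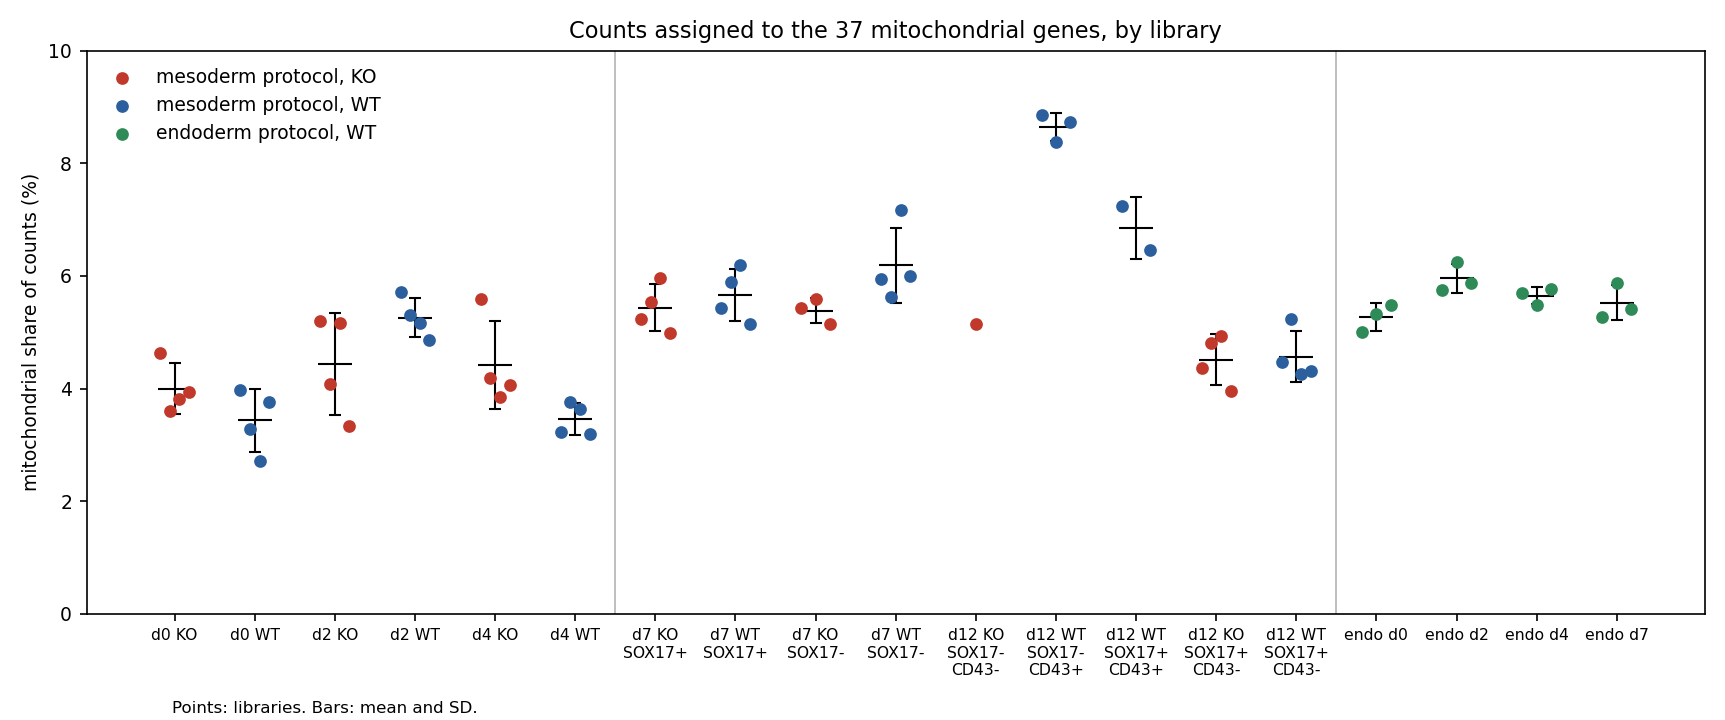
Share of all counts, in percent, that fell on the 37 mitochondrial genes, with 1 point per library and bars for the mean ± SD of each group, KO in red, WT in blue and the endoderm protocol in green. The 3 CD43-positive SOX17-negative libraries of day 12, at 8.37 to 8.85%, lie above every other library, and the WT mesoderm cells of day 2 lie above those of days 0 and 4.

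Scaled to gene length, the counts of MT-ATP8 were the highest of the members. On the deposited RPKM scale, reads scaled to gene length and library size, which sets genes of unequal length side by side, MT-ATP8 averaged 8506 over the 65 libraries (range 3720 to 15632) and ranked first among the 15 mRNAs and rRNAs in 62 libraries, second in 2 and at rank 5 in WT SOX17-negative replicate 4 of day 7, the library that stood apart. MT-CO3 followed with a mean of 6449 RPKM, then MT-ND4L with 5681, MT-CO2 with 5679, MT-ND4 with 5338 and MT-CO1 with 5066 RPKM. These 5 genes changed places between libraries, with ranks from 1 to 12; the rank of 12 was that of MT-ND4L in the same library. MT-ND5 at 2293 and MT-ND2 at 1811 RPKM were the lowest mRNAs, and MT-RNR1 at 524 RPKM ranked last in every library, below MT-RNR2 at 3211 RPKM, although the ribosome holds both rRNAs in equal number. MT-ND6, the only mRNA on the minus strand, averaged 2339 RPKM. MT-ATP6, which shares 46 bases with MT-ATP8, averaged 3676 RPKM. How fragments lying over 2 genes were counted was not stated, which bears most on short genes such as MT-ATP8 (207 bases). This order is therefore one of RPKM values, and whether it holds for RNA molecules was not tested. By counts, MT-CO1 was among the 6 most counted genes of the whole table in each library.

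Most tRNA genes varied more between libraries than any mRNA. Across the 65 libraries the highest RPKM was 2.67 (MT-ND2) to 4.56 (MT-CYB) times the lowest for the mRNAs and 6.15 times for MT-RNR1. The same range was 215-fold for MT-TF, 59.5-fold for MT-TV, 30.4-fold for MT-TQ and 26.8-fold for MT-TM and MT-TT, the widest tRNAs, and 4.31-fold for MT-TK, 4.76-fold for MT-TW and 5.07-fold for MT-TG, the narrowest. Some neighbouring genes had the most similar profiles: Pearson's r of log2 CPM over the 65 libraries was 0.999985 for MT-TC and MT-TY, 0.997 for MT-TS2 and MT-TL2, 0.979 for MT-TH and MT-TS2, 0.978 for MT-ATP8 and MT-ATP6, 0.967 for MT-ND6 and MT-TE, and 0.943 for MT-TI and MT-TQ, which overlap by 3 bases on opposite strands. Other neighbours were less alike, with r of 0.656 for MT-RNR1 and MT-TV and 0.575 for MT-RNR2 and MT-TL1. MT-ATP8 and MT-ND4L, which do not adjoin, had an r of 0.933. The lowest r of any pair was -0.174, for MT-TA and MT-CYB. These r values are descriptions, since all pairs share the same libraries and depths and adjoining genes may share fragments. Which fragments the counting gave to a tRNA gene, and whether it used the strand, was not stated, and a tRNA count may hold unprocessed precursor and fragments of its neighbours.

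At day 12, 34 of the 37 genes were higher in CD43-positive SOX17-negative cells than in WT CD43-negative SOX17-positive cells, and 0 were lower, whereas 66.2% of the 22978 genes tested were called, 32.3% higher and 33.9% lower. The 34 comprised all 13 mRNAs, both rRNAs and 19 of 22 tRNAs. The median log2 fold change of the members was 1.11, against -0.02 for all genes. MT-ATP8, a small subunit of the ATP synthase, had 3485, 2863 and 3159 CPM in CD43-positive SOX17-negative libraries, against 1382, 1578, 1181 and 1288 CPM in CD43-negative libraries. The groups did not overlap, and the fold change was 1.21 ± 0.17 (adjusted p = 7.5e-07). MT-CO3, a core subunit of cytochrome c oxidase, had 8677, 8199 and 8242 CPM in CD43-positive SOX17-negative libraries, against 3962, 4691, 3627 and 3570.1 CPM in CD43-negative libraries, a fold change of 1.07 ± 0.13 (adjusted p = 8.0e-08). MT-CO1, the catalytic subunit of the same enzyme, had the smallest change of the mRNAs, with 13036, 12076 and 11842 CPM against 8471, 9499.6, 7553 and 7854 CPM and a fold change of 0.55 ± 0.13 (adjusted p = 0.00038). Here too every CD43-positive SOX17-negative library was above every CD43-negative one. The other mRNAs lay between 0.69 (MT-CYB) and the value of MT-ATP8. All 34 calls held when each library was left out in turn.

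MT-RNR1 and several tRNAs had larger changes than any mRNA. MT-RNR2, the large-subunit rRNA, had 8465, 10718 and 9393 CPM in CD43-positive SOX17-negative libraries, against 4568, 4998, 5031 and 4123 CPM in CD43-negative libraries, a fold change of 1.01 ± 0.18 (adjusted p = 1.5e-05). MT-RNR1, the small-subunit rRNA, had 1083, 973 and 1408 CPM against 461, 436, 391 and 323 CPM, a fold change of 1.52 ± 0.22 (adjusted p = 6.8e-07). Neither rRNA overlapped between the groups. The tRNA genes beside them, shown above, rose most: MT-TV had 76.9, 54.4 and 113 CPM in CD43-positive SOX17-negative libraries, against 3.84, 7.89, 8.46 and 6.49 CPM in CD43-negative libraries, and MT-TF had 50.3, 36.3 and 81.6 against 3.90, 4.91, 5.81 and 4.33 CPM. Their fold changes were 3.61 ± 0.28 (adjusted p = 1.1e-11) and 3.56 ± 0.31 (adjusted p = 7.3e-11). MT-TT, directly after MT-CYB, had 69.2, 75.8 and 115 CPM against 9.64, 8.99, 13.4 and 9.06 CPM, a fold change of 3.07 ± 0.30 (adjusted p = 9.6e-10). MT-TL1, a leucine tRNA directly after MT-RNR2, was higher by 1.83 ± 0.15 (adjusted p = 1.7e-11), and the serine tRNA MT-TS2 by 2.72 ± 0.24 (adjusted p = 1.2e-10). The 3 members that did not pass were the tRNAs MT-TA (0.41 ± 0.36), MT-TS1 (0.09 ± 0.32) and MT-TD (0.60 ± 0.44), for alanine, serine and aspartate, of which MT-TA and MT-TS1 lie on the minus strand.

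**Figure D2:**
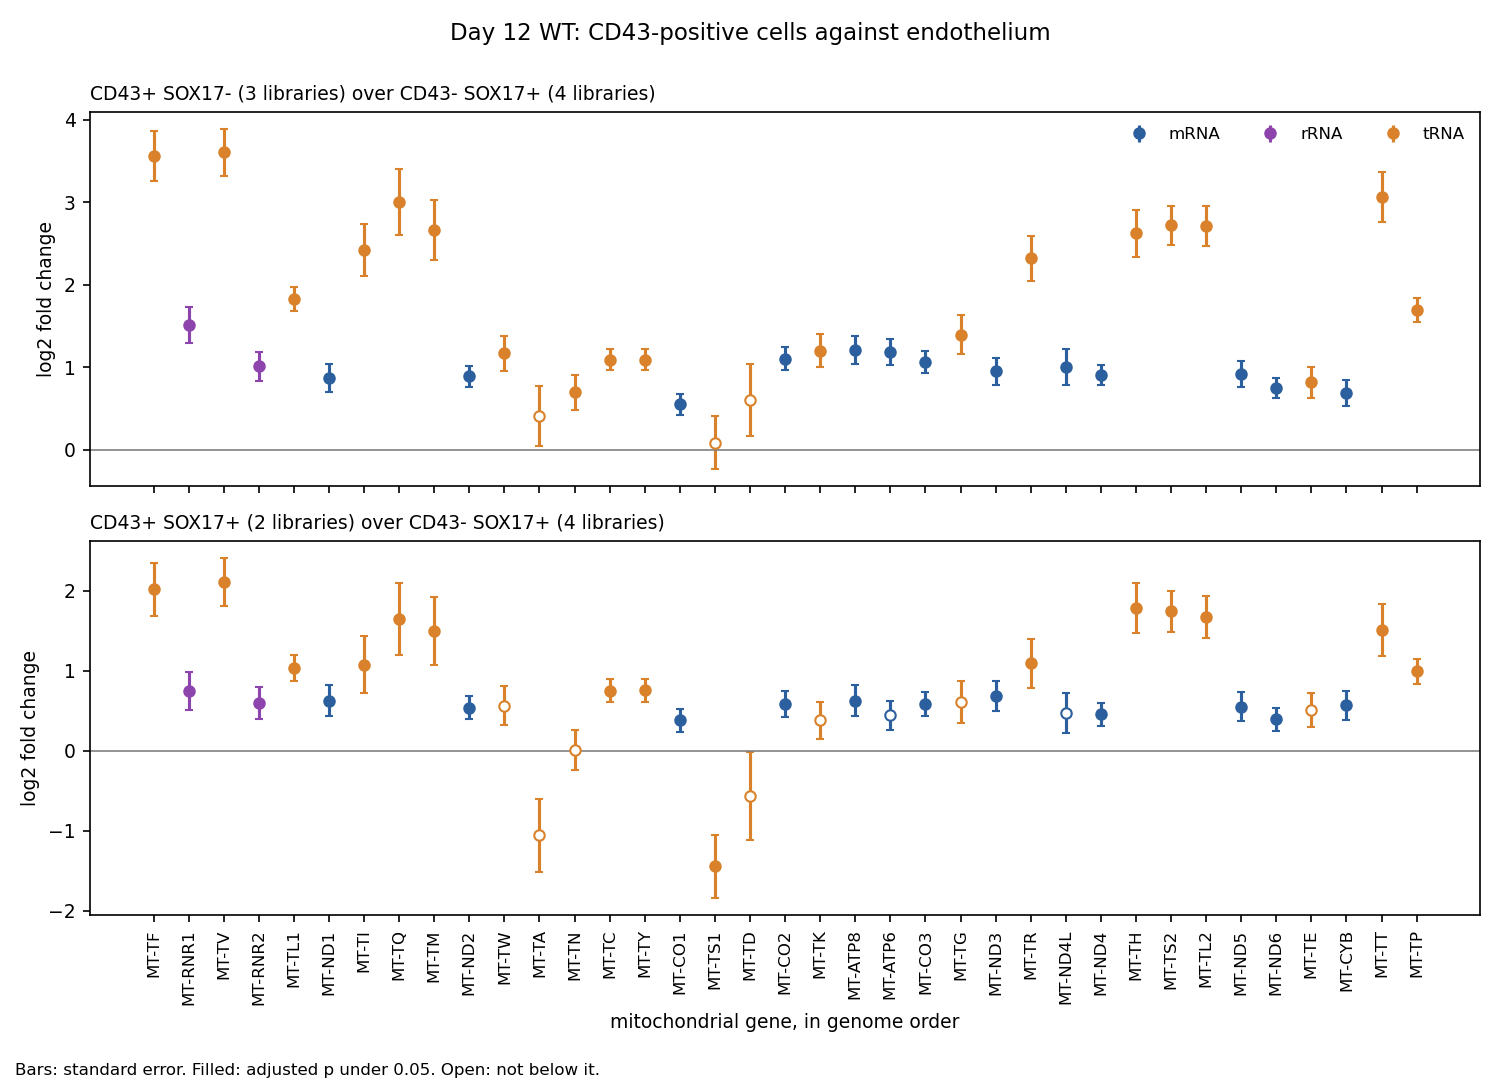
Log2 fold change with its SE for the 37 genes in genome order, in CD43-positive SOX17-negative cells (top panel, 3 libraries) and CD43-positive SOX17-positive cells (bottom panel, 2 libraries), each over the 4 WT CD43-negative SOX17-positive libraries of day 12. Filled symbols have an adjusted p under 0.05, with mRNAs in blue, rRNAs in purple and tRNAs in orange, and the tRNAs MT-TF, MT-TV and MT-TT reach 3.07 to 3.61 in the top panel, whereas the mRNAs stay between 0.55 and 1.21.

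The summed counts of the classes followed the same pattern. The mRNAs took 7.35 ± 0.35% of all counts in CD43-positive SOX17-negative cells and 3.98 ± 0.44% in CD43-negative cells (SD, n = 3 and 4). The rRNAs took 1.07 ± 0.11% and 0.508 ± 0.046%, and the tRNAs 0.232 ± 0.026% and 0.0848 ± 0.0044% in CD43-positive SOX17-negative and CD43-negative cells. The gates differ in SOX17 as well as in CD43, and the blood and endothelial marker sums given above moved with the result. Counts of 5 nuclear-encoded RNAs without a poly(A) tail summed to 6.65 ± 1.2 and 4.45 ± 2.2 CPM in these groups. The part of either in the result was not tested. Among the pseudogene copies, MTATP6P1 was higher by 0.91 (adjusted p = 0.003), whereas MTCO1P12 (0.10, adjusted p = 0.79) and MTND4P12 (0.59, adjusted p = 0.095) did not pass.

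CD43-positive SOX17-positive cells lay between these populations in their share of mitochondrial RNA. Against the same CD43-negative cells, 27 of 37 genes were higher and 1 was lower in CD43-positive SOX17-positive cells, with 26.5% of all genes called, 15.5% higher and 10.9% lower. The members' median was 0.61. MT-ATP8 had 2376 and 1988 CPM in the 2 CD43-positive SOX17-positive libraries, against the 1181 to 1578 CPM of CD43-negative cells, a fold change of 0.63 ± 0.19 (adjusted p = 0.017) whose call was lost without CD43-positive SOX17-positive replicate 1 or CD43-negative replicate 3. MT-TV had 32.2 and 27.7 CPM, a fold change of 2.11 ± 0.30 (adjusted p = 6.3e-06), and MT-TF 21.2 and 18.9 CPM, a fold change of 2.02 ± 0.33 (adjusted p = 4.3e-05). All 4 of these tRNA values were above every CD43-negative library. The 1 member that was lower was MT-TS1, the serine tRNA of the minus strand, at 34.4 and 12.4 CPM against 89.6, 63.7, 45.5 and 46.8 CPM, a fold change of -1.44 ± 0.39 (adjusted p = 0.0073) that did not pass without replicate 2 of CD43-positive SOX17-positive cells. With only 2 libraries in the group the count depended on each: 11 members were called without replicate 1 and 15 without replicate 2.

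Within CD43-positive cells, 22 of 37 genes were higher in SOX17-negative than in SOX17-positive libraries and 0 were lower, where 37.5% of all genes were called, 14.6% higher and 22.9% lower. The 22 included MT-ATP6 at 0.74 ± 0.20 (adjusted p = 0.0041), MT-CO3 at 0.49 ± 0.16 (adjusted p = 0.020) and MT-RNR1 at 0.77 ± 0.26 (adjusted p = 0.023), besides 3 other mRNAs and 16 tRNAs, up to 1.56 for MT-TT. Without replicate 2 of the SOX17-positive group, 8 members were called, and MT-ATP6, MT-CO3 and MT-RNR1 were not among them. Set against the CD43-negative SOX17-negative cells of day 7, the CD43-positive SOX17-negative cells of day 12 had 28 of 37 genes higher and 0 lower, with 62.9% of all genes called, 30% higher and 33% lower. MT-TV again had the largest change, 3.04 ± 0.27 (adjusted p = 2.2e-10). Without the day 7 library that stood apart, 31 were higher and 0 lower.

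Nuclear genes for the same complexes were also higher in CD43-positive SOX17-negative cells. Where 32.3% of all genes were higher and 33.9% lower than in CD43-negative SOX17-positive cells, 67 of 79 nuclear genes for respiratory chain and ATP synthase subunits were higher and 0 lower, with a median of 0.75. By complex these were 27 of 37 in complex I, 3 of 4 in complex II, 9 of 9 in complex III, 11 of 11 in complex IV and 17 of 18 in complex V. Examples were ATP5MC3, a ring subunit of the ATP synthase, at 1.64 ± 0.17 (adjusted p = 2.7e-09), UQCRH of complex III at 1.48 ± 0.20 (adjusted p = 3.6e-07) and COX5A of complex IV at 1.42 ± 0.18 (adjusted p = 7.4e-08). Of 80 genes for mitochondrial ribosomal proteins, 70 were higher and 0 lower. Of 17 genes for transcription and replication of mitochondrial DNA, 13 were higher and 1 lower, among them TFAM, which packages and activates the genome, at 1.50 ± 0.18 (adjusted p = 3.5e-08), TFB2M, which opens the promoters, at 1.53 ± 0.13 (adjusted p = 3.4e-11), and the helicase TWNK at 1.48 ± 0.12 (adjusted p = 3.2e-11). The polymerase gene POLRMT had a value of 0.30 ± 0.16 (adjusted p = 0.092) and did not pass. Of 30 genes for processing and stability of mitochondrial RNA, 24 were higher and 0 lower, including LRPPRC, which stabilises the mRNAs, at 1.39 ± 0.12 (adjusted p = 4.2e-11). In CD43-positive SOX17-positive cells 20 of the 79 nuclear respiratory genes were higher and 0 lower, with a median of 0.35, where 15.5% of all genes were higher and 10.9% lower.

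In the mesoderm protocol, most mitochondrial mRNAs rose at day 2 and all of them fell at day 4 in WT cells. At day 2, 18 of 37 genes were higher and 5 lower than at day 0, with 45.1% of 21612 genes called, 22.2% higher and 22.9% lower. Of the 13 mRNAs 10 were higher and 0 lower. MT-ATP8 had 2555, 2410.3, 2202 and 2121 CPM at day 2, against 1221, 1186, 742 and 1347 CPM at day 0, a fold change of 1.01 ± 0.20 (adjusted p = 0.00024). MT-CYB, the cytochrome b of complex III, had 4757, 4488, 4517 and 4477 CPM at day 2, against 2722, 2041, 1499 and 2665 CPM at day 0, a fold change of 0.99 ± 0.27 (adjusted p = 0.0046). MT-ND4, a membrane subunit of complex I, had 8585, 8415, 8612 and 7999.7 CPM against 4534, 4359, 3750.3 and 5230.1 CPM, a fold change of 0.88 ± 0.14 (adjusted p = 2.2e-05). In all 3 genes every day 2 library was above every day 0 library. The mRNAs that did not pass were MT-ND1 (0.57 ± 0.24), MT-CO1 (0.30 ± 0.17) and MT-CO3 (0.42 ± 0.18). The rRNAs did not pass either, with 0.13 ± 0.24 for MT-RNR1 and -0.12 ± 0.25 for MT-RNR2. Counts of rRNA per 100 mRNA counts were 7.34 ± 1.51 at day 2 and 12.6 ± 3.0 at day 0 (SD, n = 4 each).

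The tRNAs split by position at day 2. The 5 genes that were lower were MT-TA at -1.26 ± 0.27 (adjusted p = 0.00050), MT-TN (-1.01 ± 0.26), MT-TC and MT-TY (-0.72 ± 0.22 and -0.72 ± 0.22), which form 1 cluster on the minus strand, and MT-TP (-0.92 ± 0.17), the minus-strand gene next to the control region where transcription starts. MT-TA had 9.54, 8.68, 9.79 and 4.86 CPM at day 2, against 16.2, 19.5, 23.4 and 18.8 CPM at day 0, without overlap. The other 2 minus-strand tRNA genes that passed went the other way: MT-TE, the glutamate tRNA beside MT-ND6, rose by 0.72 ± 0.19 (adjusted p = 0.0037), and MT-TQ by 1.47 ± 0.41 (adjusted p = 0.0058). MT-TQ overlaps MT-TI, which rose by 1.16 ± 0.34 (adjusted p = 0.0074).

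At day 4, 24 of 37 genes were lower than at day 2 and 0 were higher, with 51.4% of all genes called, 25.5% lower and 25.9% higher. All 13 mRNAs were lower. MT-ND2, a core subunit of complex I, had 1241, 1207, 1335 and 1096 CPM at day 4, against 2616, 2530.4, 2257 and 2463 CPM at day 2. Its change from day 2 to day 4 was -1.02 ± 0.19 (adjusted p = 0.00013). MT-ND6 had 723, 762, 622 and 556 CPM at day 4 against 1344, 1140.5, 1154 and 1294 CPM at day 2, a fold change of -0.89 ± 0.16 (adjusted p = 8.4e-05). MT-CO1 changed least among the complex IV genes, with -0.44 ± 0.17 (adjusted p = 0.038), and lost its call without any 1 of 6 of the 8 libraries compared. MT-TQ and MT-TM, neighbours between MT-ND1 and MT-ND2, had the largest changes, -2.09 ± 0.42 and -2.12 ± 0.43. MT-RNR1 (-0.56 ± 0.24) and MT-RNR2 (0.07 ± 0.25) did not pass.

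The balance between complexes also moved. Of all mitochondrial mRNA counts, the 3 complex IV genes took 31.6 to 33.7% at day 2 and 38.2 to 43.4% at day 0 (4 libraries each), and the 2 complex V genes 11.7 ± 0.33% and 9.34 ± 0.95% (SD, n = 4 each). MT-CO1 alone took 12.7 ± 0.16% at day 2 and 16.2% at day 0. In sorted CD43-negative cells of days 7 and 12 its group means were 19.7 to 21%, and 16.8 ± 0.65% in CD43-positive SOX17-negative cells (SD, n = 3).

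Nuclear genes for the same complexes did not show this pattern at day 2. Of the 79 nuclear respiratory genes, 9 were higher and 22 lower at day 2 than at day 0, where 22.2% of all genes were higher and 22.9% lower. At day 4 against day 2, 17 were higher and 10 lower, where 25.9% of all genes were higher and 25.5% lower. Counts of the mitochondrial mRNAs over counts of these nuclear genes were 4.37 ± 0.73 at day 0, 7.88 ± 0.30 at day 2 and 4.67 ± 0.34 at day 4 (SD, n = 4 each). TFAM was lower at both steps, with -0.49 ± 0.11 (adjusted p = 0.00096) at day 2 and -0.69 ± 0.11 (adjusted p = 2.1e-05) at day 4. POLRMT had -0.18 ± 0.14 (adjusted p = 0.33) at day 2, which did not pass, and fell at day 4 with -0.83 ± 0.14 (adjusted p = 4.9e-05). LRPPRC passed at neither step, with -0.27 ± 0.18 (adjusted p = 0.22) at day 2 and 0.08 ± 0.18 (adjusted p = 0.72) at day 4. Of the 30 genes for processing and stability of mitochondrial RNA, 3 were higher and 7 lower at day 2 and 0 higher and 18 lower at day 4. The pluripotency markers summed to 1509 to 1828 CPM at day 2 and 3543 to 4352 CPM at day 0, and the streak and mesoderm markers to 2700 to 4199 and 3.49 to 5.76 CPM.

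In KO cells 11 members were called at day 2 and 9 at day 4. At day 2, 5 of 37 genes were higher and 6 lower than at day 0 in KO cells, with 43.3% of all genes called, 21.6% higher and 21.7% lower. Without TMM scaling 8 were higher and 6 lower. MT-ATP8 had 2262, 1846, 2416 and 1382 CPM at day 2, against 1686, 1285, 1262 and 1198 CPM at day 0, a fold change of 0.50 ± 0.20 (adjusted p = 0.043); 1 of the 4 day 2 libraries lay within the range of day 0. The higher calls were MT-ATP8, MT-ATP6 (0.49 ± 0.19), MT-ND4L (0.40 ± 0.14), MT-ND4 (0.38 ± 0.14) and the arginine tRNA MT-TR (0.72 ± 0.25), and the 4 mRNA calls were each lost without any 1 of 5 or 6 libraries. From 6 to 16 members were called over the fits that each left out 1 library: 6 without KO day 0 replicate 4, and 7 without KO day 0 replicate 2 or 3 or KO day 2 replicate 1 or 3. The 6 lower genes were MT-TF and the minus-strand tRNAs MT-TN, MT-TA, MT-TP, MT-TC and MT-TY. The last 2 had -1.22 ± 0.22 and -1.22 ± 0.22. At day 4, 2 genes were higher and 7 lower than at day 2, with 50.5% of all genes called, 26% higher and 24.5% lower. The 2 higher genes, MT-RNR2 (0.89 ± 0.25, adjusted p = 0.0057) and MT-TV (1.54 ± 0.60, adjusted p = 0.036), rested on replicate 4: MT-RNR2 had 3649, 4466, 2741 and 7937 CPM at day 4 against 3000.4, 2698, 2648 and 2072 CPM at day 2, and without that library 0 genes were higher and 5 lower. Without KO day 2 replicate 2, 1 was higher and 4 lower. The difference between KO and WT cells in these changes was not tested.

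In the endoderm protocol the mitochondrial genes did not move as 1 group. At day 2, 4 of 37 were higher and 10 lower than at day 0, with 55.5% of 21542 genes called, 28.7% higher and 26.8% lower. Within complex I the genes parted: MT-ND4 had 10180.3, 10791 and 9777 CPM at day 2, against 6534, 7047 and 7816 CPM at day 0, and MT-ND1, a core subunit next to the rRNA genes, had 1606, 1956 and 1764 CPM at day 2, against 3017, 3507 and 3186 CPM at day 0. Neither gene overlapped between the days. The fold changes were 0.47 ± 0.09 (adjusted p = 0.00052) and -0.92 ± 0.11 (adjusted p = 5.5e-06). MT-ND2 was lower, with -0.63 ± 0.12 (adjusted p = 0.00043) and MT-ND4L higher, with 0.43 ± 0.09 (adjusted p = 0.00068), while MT-ATP6 and MT-ATP8 passed at 0.30 ± 0.10 and 0.28 ± 0.11 but lost their calls without any 1 of 4 libraries. As shares of all mitochondrial mRNA counts, MT-ND1 took 3.40 ± 0.22% at day 2 and 6.97 ± 0.44% at day 0, and MT-ND4 19.6% and 15.3%.

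MT-TL1, the leucine tRNA between MT-RNR2 and MT-ND1, was lower still at day 2, with 53.1, 61.9 and 76.9 CPM, against 154, 147 and 102 CPM at day 0 and a fold change of -1.13 ± 0.16 (adjusted p = 4.5e-05). MT-RNR1 passed at -0.35 ± 0.14 (adjusted p = 0.043), a call lost without any 1 of 4 libraries, and MT-RNR2 did not pass (0.38 ± 0.20). MT-RNR1 counts per 100 MT-RNR2 counts were 8.86 ± 1.09 at day 2 and 14.5 ± 0.39 at day 0 (SD, n = 3 each), without overlap. Without day 2 replicate 1 or replicate 2, 2 members were higher and 5 lower. With library sizes not scaled by TMM the split was 8 higher and 7 lower.

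Fewer members were called at the later steps. At day 4, 8 genes were higher and 0 lower than at day 2, with 42.4% of all genes called, 22.2% higher and 20.2% lower. With its change from day 2 in brackets, MT-ND1 had 2181, 2376 and 1899 CPM at day 4 (0.40 ± 0.10, adjusted p = 0.0069) and MT-ND2 2199, 2288 and 1951 CPM (0.48 ± 0.12, adjusted p = 0.0049). Both calls held without each library in turn, while the whole count fell to 4 without day 2 replicate 1, to 5 without day 2 replicate 2 or day 4 replicate 1, and to 3 higher and 2 lower without TMM. At day 7, 2 genes were higher and 2 lower than at day 4, with 21.3% of all genes called, 11.2% higher and 10.1% lower. MT-TL1 had 34.5, 41.7 and 34.3 CPM at day 7 against 63.2, 52.9 and 59.5 CPM at day 4, and MT-ND1 1475, 1467 and 1660.1 CPM at day 7. Their changes were -0.56 ± 0.16 (adjusted p = 0.026) and -0.38 ± 0.10 (adjusted p = 0.018), and MT-TV and MT-TE passed upward at 1.28 ± 0.37 and 0.27 ± 0.09. Each of these 4 calls was lost without some library, leaving out any 1 of the 6 libraries gave 1 to 2 members, and without TMM 1 was higher and 5 lower.

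Most of the nuclear genes listed for mitochondrial gene expression were lower at the same first step. At day 2 of the endoderm protocol, 1 of 17 genes for transcription and replication of mitochondrial DNA was higher and 12 lower, 1 of 30 genes for RNA processing and stability was higher and 22 lower, and 8 of 80 mitochondrial ribosomal protein genes were higher and 49 lower. Of all genes tested, 28.7% were higher and 26.8% lower. The log2 fold changes were -0.77 ± 0.18 (adjusted p = 0.0024) for TFAM, -0.61 ± 0.12 (adjusted p = 0.00064) for POLRMT and, for LRPPRC, -0.52 ± 0.10 (adjusted p = 0.00054). REXO2, which degrades short RNA in mitochondria, was lower, with -1.42 ± 0.12 (adjusted p = 3.1e-07). Of the 79 nuclear respiratory genes 10 were higher and 15 lower. Counts of mitochondrial mRNAs over counts of those nuclear genes were 6.87 ± 0.27, 7.78 ± 0.30, 9.45 ± 0.49 and 9.31 ± 0.32 at days 0, 2, 4 and 7 (SD, n = 3 each).

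**Figure D3:**
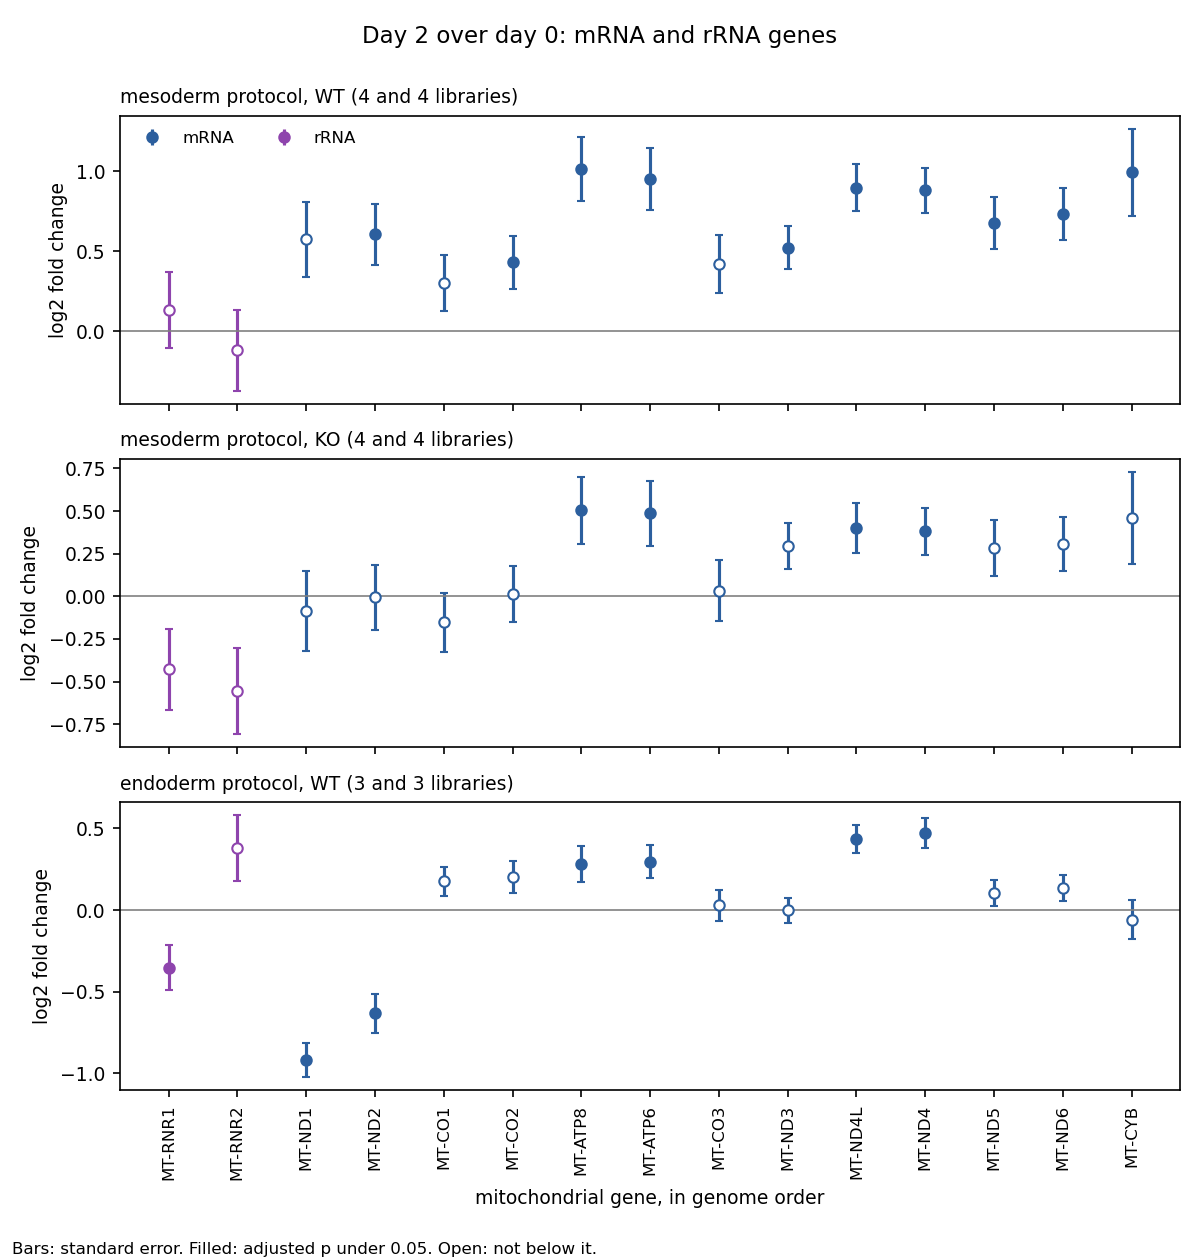
Log2 fold change at day 2 over day 0 with its SE for the 15 mRNA and rRNA genes in genome order, in WT mesoderm cells, KO mesoderm cells and endoderm cells. Filled symbols have an adjusted p under 0.05; MT-ND1 and MT-ND2 lie below 0 in endoderm cells (-0.92 and -0.63), whereas 10 of the 13 mRNAs are called higher in WT mesoderm cells.

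The difference between the 2 protocols in the step from day 0 to day 2 was tested directly on WT cells. For 18 of 37 genes the change was lower in the endoderm protocol and for 0 higher, with 29.5% of 22664 genes called, 13.9% lower and 15.5% higher. The difference, endoderm minus mesoderm, was -1.48 ± 0.25 (adjusted p = 0.00020) for MT-ND1, -1.23 ± 0.20 (adjusted p = 0.00015) for MT-ND2 and -1.04 ± 0.26 (adjusted p = 0.0055) for MT-CYB. In total 10 of the 13 mRNAs passed, the smallest difference being -0.40 ± 0.15 for MT-ND4, a call that was lost without any 1 of 10 libraries. For the step from day 0 to day 4 the change was higher in the endoderm protocol for 5 genes and lower for 0, with 40.4% of all genes called, 20.5% higher and 19.9% lower. The 5 were MT-ND5 (0.55 ± 0.15), MT-ND6 (0.59 ± 0.15), MT-TE (0.65 ± 0.19), MT-TC (0.77 ± 0.30) and MT-TP (1.07 ± 0.30). MT-TY did not pass although its counts were nearly those of MT-TC, so the call of MT-TC lay close to the threshold. From 8 to 9 members passed without any 1 of WT mesoderm day 0 replicate 3, WT mesoderm day 4 replicate 3, endoderm day 0 replicate 1 and endoderm day 4 replicate 2.

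These tests cross series of library numbers, and the WT cells of day 0 already differed between the mesoderm and endoderm series. Endoderm day 4 replicate 3 bears a number next to those of the sorted cells, apart from the other endoderm libraries; without it, 4 members were called in the day 4 difference between protocols, 6 in endoderm day 4 against day 2 and 2 in day 7 against day 4. In the endoderm series 16 of 37 genes were higher and 0 lower than in the mesoderm series at day 0, where 0.882% of all genes were called, 0.437% higher and 0.446% lower, and 0 of the 79 nuclear respiratory genes passed in either direction. MT-TR had the largest difference, 1.56 ± 0.21 (adjusted p = 0.0030), and MT-ND6 was higher by 0.71 ± 0.10 (adjusted p = 0.0046). MT-CYB had 3482, 4022 and 4382 CPM in the endoderm series and 2722, 2041, 1499 and 2665 CPM in the mesoderm series, without overlap. The count was 2 without endoderm replicate 3, 8 without endoderm replicate 2 or mesoderm replicate 2, 9 without endoderm replicate 1 and 10 without mesoderm replicate 3, and 0 when these 7 libraries were fitted alone. Library series and day 0 culture cannot be told apart. Both differences between protocols are measured from day 0, and the part of the unequal start in them was not tested.

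Endothelial cells of day 7 had a larger share of mitochondrial RNA than the unsorted WT cells of day 4, but lower counts of the nuclear partner genes. In WT SOX17-positive cells at day 7, 21 of 37 genes were higher and 0 lower than at day 4, with 62.8% of 20028 genes called, 31.7% higher and 31.1% lower. MT-CO1 had 9581, 10484, 10851 and 9169 CPM at day 7, against 3968, 5161, 4600.5 and 4337 CPM at day 4, a fold change of 1.10 ± 0.13 (adjusted p = 4.0e-05). MT-ND6 had 1291, 1400.0, 1540.4 and 1311 CPM at day 7, against 723, 762, 622 and 556 CPM at day 4, a fold change of 1.01 ± 0.13 (adjusted p = 8.0e-05). Both groups were clear of each other in these 2 genes. MT-RNR1 and MT-RNR2 were higher by 0.80 ± 0.11 and 0.93 ± 0.13, while MT-ATP8 (0.30 ± 0.14), MT-ATP6 (0.25 ± 0.14) and MT-ND4L (0.32 ± 0.15) did not pass. Marker sums moved with these changes: the 8 endothelial genes summed to 10911 to 12094 CPM at day 7 and 1453 to 2184 CPM at day 4, the nuclear-retained MALAT1 and NEAT1 to 533 to 768 and 114 to 273 CPM, and the 6 immediate early genes to 452 to 827 and 110 to 176 CPM. Their part in the result was not tested.

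Of the 79 nuclear respiratory genes 3 were higher and 51 lower at day 7, with a median of -0.41, and of the 80 mitochondrial ribosomal protein genes 3 were higher and 56 lower. Of all genes tested, 31.7% were higher and 31.1% lower. TFAM was lower, with -0.55 ± 0.16 (adjusted p = 0.013), as was LRPPRC, with -0.56 ± 0.18 (adjusted p = 0.021). Mitochondrial mRNA counts over nuclear respiratory gene counts were 9.07 to 9.99 in the group means of all sorted populations of days 7 and 12, against 4.67 ± 0.34 at day 4 (SD, n = 4). Sorting and library series differ between these groups and cannot be told apart from time.

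**Figure D4:**
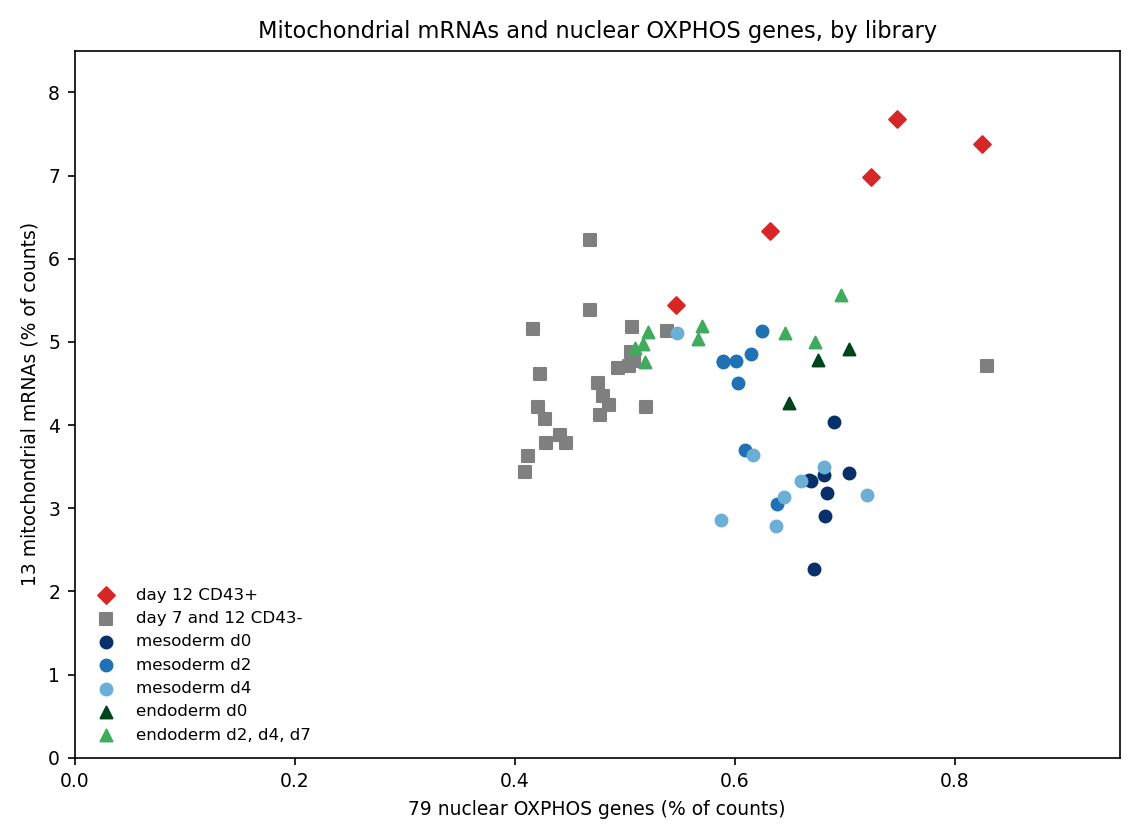
Share of all counts on the 13 mitochondrial mRNAs (vertical axis, percent) against the share on 79 nuclear genes for respiratory chain and ATP synthase subunits (horizontal axis, percent), with 1 symbol per library. CD43-positive SOX17-negative cells are high on both axes, with means of 7.35 and 0.765%, and unsorted WT mesoderm cells of days 0 and 4 have means of 2.98 and 3.03% on the vertical axis at 0.682 and 0.651% on the horizontal one.

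At day 7, endoderm cells and WT SOX17-positive endothelial cells had overlapping total shares, 5.52 ± 0.31% and 5.67 ± 0.46% (SD, n = 3 and 4), but single members differed in both directions. In endoderm 20 of 37 genes were higher and 3 lower, with 71.6% of 21165 genes called, 35.3% higher and 36.3% lower. Without TMM the split was 12 higher and 8 lower, and the median of all genes shifted by -0.248, so the smaller changes depend on the scaling. MT-ND1 had 1475, 1467 and 1660.1 CPM in endoderm, against 3028, 3149, 3277 and 2259 CPM in endothelium, a fold change of -0.68 ± 0.14 (adjusted p = 0.00086). MT-ND4 had 10226, 10777 and 9543 CPM in endoderm, against 7281, 7862, 8527 and 6552 CPM in endothelium, a fold change of 0.68 ± 0.13 (adjusted p = 0.00054). These 2 complex I genes thus differed in opposite directions, with no overlap between the cell types. MT-TL1 (-1.56 ± 0.11, adjusted p = 6.4e-08) and MT-TF (-1.74 ± 0.23) were also lower in endoderm, and MT-TV (2.06 ± 0.28, adjusted p = 3.1e-05) and MT-TL2 (1.47 ± 0.12) were the highest calls. The same limits of sorting and library series apply.

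Between days 7 and 12 few mitochondrial genes passed in the SOX17-positive CD43-negative cells. In WT cells 0 genes were higher and 2 lower at day 12, with 17.8% of all genes called, 8.57% higher and 9.23% lower. MT-CO3 had 3962, 4691, 3627 and 3570.1 CPM at day 12, against 5497, 6240.2, 6011 and 5084 CPM at day 7, a fold change of -0.48 ± 0.12 (adjusted p = 0.0069), and every day 12 library was below every day 7 library. MT-TL1 passed at -0.43 ± 0.14 (adjusted p = 0.026), a call lost, leaving 1 member, without any 1 of WT day 7 replicates 1, 2 and 3 and WT day 12 replicates 1 and 4. With the replicate number as a block, 0 were higher and 5 lower; 10 were lower when these groups were fitted alone, 5 without TMM and 0 with limma. In KO cells 0 were higher and 5 lower, with 13.3% of all genes called, 6% higher and 7.29% lower. MT-CO3 had 4031, 4266, 4029.8 and 3164 CPM at day 12 in KO cells, against 5138, 5853, 6097 and 4877 CPM at day 7, a fold change of -0.49 ± 0.12 (adjusted p = 0.0075), and MT-TL1 passed at -0.63 ± 0.14 (adjusted p = 0.0020). The call of MT-CO3 was lost without KO day 12 replicate 4, which left 1 member, while 2 were called without KO day 12 replicate 1 and 3 without KO day 12 replicate 2 or KO day 7 replicate 3.

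SOX17 status at day 7 made no called difference. In WT cells 0 of 37 genes passed between SOX17-positive and SOX17-negative libraries, and 1.6% of all genes were called. At an unadjusted p under 0.05 were 4 members and 2619 of the 22978 genes tested. In KO cells 0 passed, and 0.67% of all genes were called, with 0 members and 1832 of all genes at an unadjusted p under 0.05. DESeq2 and limma also called 0 members in both, as did blocks of consecutive library numbers, and 0 were called in WT cells without the SOX17-negative library that stood apart.

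No mitochondrial gene passed between KO and WT cells at any stage. At days 0, 2 and 4 edgeR's quasi-likelihood test called 0 of 37 members and 0% of all 21612 genes. At an unadjusted p under 0.05 were 0, 1 and 9 members, and 146, 973 and 987 of all genes. The same test also called 0 members in SOX17-positive cells of day 7, SOX17-negative cells of day 7 and SOX17-positive CD43-negative cells of day 12. In that order, 0.0566% (0.0087% higher and 0.0479% lower), 0.0087 and 0.187% of 22978 genes were called. At an unadjusted p under 0.05 were 0, 10 and 0 of 37 members, and 860, 1094 and 707 of all genes. The SOX17-negative comparison includes the WT library of day 7 that stood apart. DESeq2 and limma called 0 members in each of these 6 comparisons, as did the fit with the replicate number as a block. Blocking on stretches of adjoining library numbers, 0 members were called in each of the 3 comparisons of sorted cells. The members' median log2 fold changes, KO over WT, were 0.19, -0.26 and 0.28 at days 0, 2 and 4, -0.06 and -0.22 in SOX17-positive and SOX17-negative cells of day 7, and -0.04 at day 12. At day 4, MT-ATP8 had 2183, 1531, 1532 and 1258 CPM in KO libraries, against 1173, 1506, 1471 and 1163 CPM in WT libraries, and 1 of the 4 KO libraries lay within the WT range. MT-ATP8 differed by 0.32 ± 0.20 at day 4 and by 0.05 ± 0.16 in SOX17-positive CD43-negative cells of day 12 (log2, SE). RUNX1 itself averaged 14.8 ± 5.4 CPM in KO and 60.9 ± 23 CPM in WT cells of that day 12 gate (SD, n = 4 each).

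**Figure D5:**
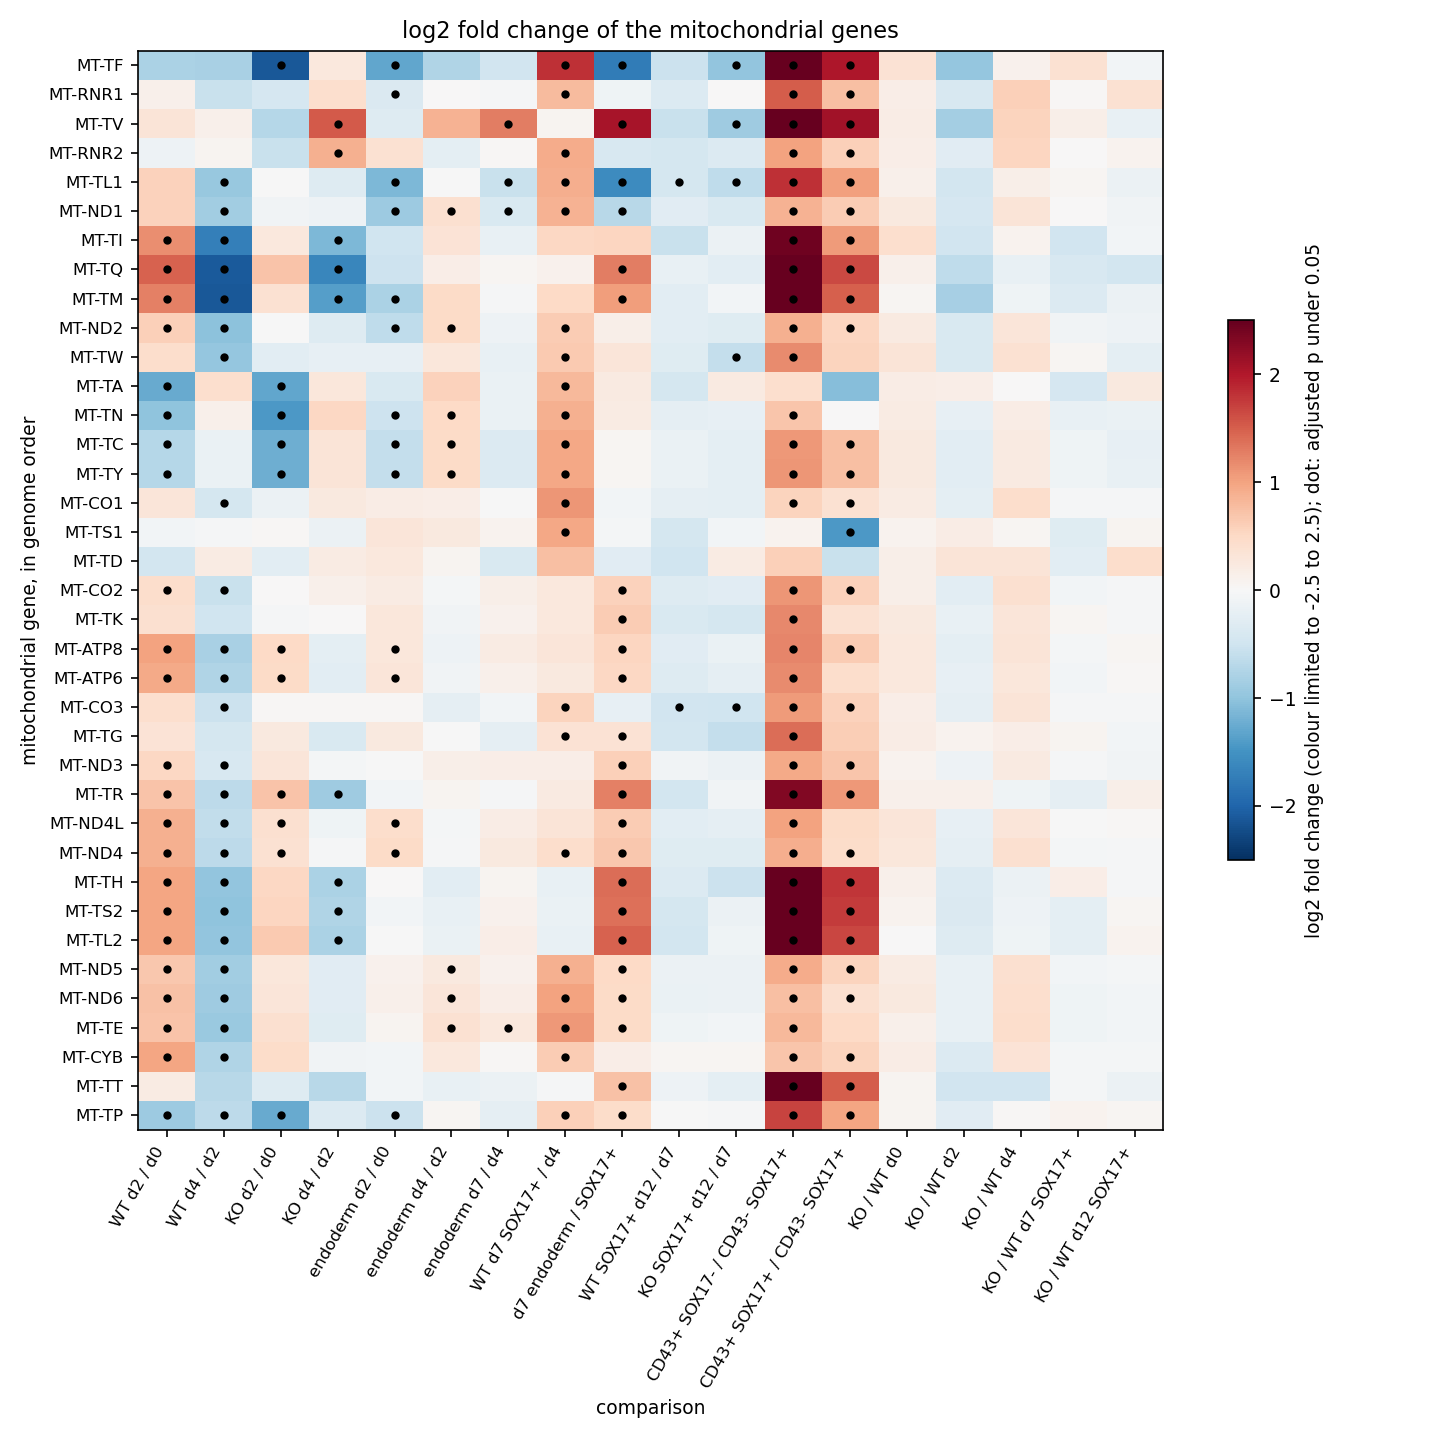
Log2 fold change of the 37 genes (down the page in genome order) in 18 comparisons (across), with colour limited to 2.5 in either direction and a dot where the adjusted p is under 0.05. Against CD43-negative SOX17-positive cells, CD43-positive SOX17-negative cells are called higher in 34 genes, and CD43-positive SOX17-positive cells higher in 27 and lower in 1. The WT mesoderm step from day 2 to day 4 is called lower in 24, and the columns of KO over WT hold no dots.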

How the data were processed

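TruSeq libraries of total RNA, per the labels' protocols, from 65 samples were used. The authors deposited raw fragment counts per gene for GRCh38, made with cutadapt 1.18 and featureCounts per the submitters' processing notes; no source used here names the aligner, annotation or strand setting. The second deposited table holds log2(TMM-scaled RPKM + 1), by the name the authors gave it. GENCODE 29 named 58039 of 58302 gene identifiers. Counts were tested in R 4.3.3 with edgeR 4.0.16 (TMM, filterByExpr at min.count 10 and min.total.count 15, quasi-likelihood F-test, Benjamini-Hochberg threshold 0.05), in models of 7 to 28 libraries. SE is the absolute log2 fold change over the square root of F. All models were tested on simulated data. DESeq2 1.42.0 and limma 3.58.1 served as alternatives, with other scalings, no filter, replicate and library-run blocks, the compared groups alone, and each library left out. All 13 mRNAs and 2 rRNAs, any tRNA, and at most 4 called genes of each list per comparison, besides TFAM, POLRMT, LRPPRC and PPARGC1A, could be named. The rule for the members uses no measured value, but this gene set and the gene lists were taken up with earlier results of these data known. Libraries with the same replicate number deviated together, with every pair's r above 0.1, between KO and WT at day 0 (0.232 to 0.774), between KO and WT SOX17-positive cells at day 7 (0.189 to 0.404) and between WT days 12 and 7 (0.132 to 0.219). The numbers come from the sample titles. Runs of consecutive library numbers, from the titles, also paired KO SOX17-positive with SOX17-negative cells of day 7 (0.135 to 0.318) and KO with WT SOX17-negative cells (0.147 to 0.185).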

Additional observations from a re-analysis of the deposited data

Results flagged for a closer look

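In 15 of 242 groups of 4 libraries, 1 value lay far from the other 3 by Dixon's test, and chance alone gives about 1 in 20. WT SOX17-negative replicate 4 at day 7 had 5 of them: a tRNA share of 0.167% (0.104 to 0.112% in the other 3 libraries), 23.8 rRNA counts per 100 mRNA counts (12.8 to 13.2), 4.32 MT-ND6 counts per 100 counts of the other mRNAs (2.77 to 2.89), 1494 CPM of MT-ND3 (756 to 783) and 669.7 CPM of MT-ND4L (1836 to 1974). MT-ND3 and MT-ND4L, both small complex I subunits, thus departed in opposite directions in that library. Replicate 4 also had the highest rRNA counts per 100 mRNA counts in SOX17-positive cells of day 7, 18.8 in KO cells (13.7 to 14.1) and 19.7 in WT cells (12.9 to 13.2). KO SOX17-negative cells of day 7, with 3 libraries, were not examined by Dixon's test. Their replicate 3, numbered next to these libraries, had the most MT-RNR2 counts of its group.

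Among unsorted mesoderm cells, KO replicate 1 at day 4 had 2048 CPM of MT-ND4L (1383 to 1455) and 4206 CPM of MT-ND5 (2550 to 2791), and KO replicate 1 at day 0 had 4138 CPM of MT-CO2 (3299 to 3365). KO replicate 4 at day 2 had 226 CPM of MT-RNR1 (355 to 376), and KO replicate 2 at day 2 had 2.94 MT-ND6 counts per 100 counts of the other mRNAs (2.68 to 2.71). WT replicate 4 at day 2 had 989.7 CPM of MT-ND3 (797 to 825), and WT replicate 1 at day 2 had 4757 CPM of MT-CYB (4477 to 4517). At day 12, WT SOX17-positive CD43-negative replicate 2 had 5265 CPM of MT-CYB (3936 to 4104).

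For 10 mRNAs the change from day 0 to day 2 differed between protocols in the direct test (log2, endoderm minus mesoderm): MT-ND1 -1.48, MT-ND2 -1.23, MT-CYB -1.04, MT-ATP8 -0.72, MT-ATP6 -0.64, MT-ND6 -0.58, MT-ND5 -0.56, MT-ND3 -0.51, MT-ND4L -0.45 and MT-ND4 -0.40. For the change from day 0 to day 4 the difference was 0.55 for MT-ND5 and 0.59 for MT-ND6. Library series differ between the protocols, and their part was not tested.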

How the results depend on the processing

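Of the 4658 values that the 295 calls of members took under the alternatives, 4170 kept their direction and stayed past the threshold, 488 kept their direction without passing, and 0 turned round. Results that moved by more than 1.5 times are given next as the number of members called; in each case the cause was not tested. Without TMM, endoderm day 4 against day 2 gave 5 and WT day 12 against day 7 gave 5. The median of all genes then shifted by -0.122 in endoderm day 4 against day 2 and by -0.108 in endoderm day 7 against day 4. Without a filter on low counts, endoderm day 4 against day 2 gave 13 and the day 4 difference between protocols gave 8. DESeq2 gave 7 for endoderm day 7 against day 4 and 9 for the day 4 difference between protocols. Limma gave 7 for KO day 2 against day 0, 3 for endoderm day 4 against day 2, 1 for endoderm day 7 against day 4, 0 for WT day 12 against day 7, 15 for CD43-positive SOX17-positive against CD43-negative cells and 14 for endoderm against endothelium at day 7. Fitted alone, the compared groups gave 1 for endoderm day 7 against day 4, 0 for the 2 series at day 0 and 10 for WT day 12 against day 7. In that last comparison the replicate block gave 5 and the block of library runs 4. The replicate block moved no other count of calls by more than 1.5 times, and it gave 25 for WT day 2 against day 0 and 34 for CD43-positive SOX17-negative cells. Leaving out 1 library gave 6 to 16 for KO day 2 against day 0, 5 to 13 for KO day 4 against day 2, 7 to 13 for endoderm day 2 against day 0, 4 to 10 for day 4 against day 2 and 1 to 2 for day 7 against day 4. It gave 2 to 22 for the series at day 0, 4 to 9 for the day 4 difference, 1 to 3 for WT and 1 to 6 for KO day 12 against day 7, 11 to 28 for CD43-positive SOX17-positive against CD43-negative cells and 8 to 23 within CD43-positive cells. Rare tRNAs are limited by counts as low as 4 for MT-TM, 6 for MT-TF and 10 for MT-TQ in a library.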

Other observations

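Nuclear genes for the upkeep of mitochondrial proteins were higher in CD43-positive SOX17-negative cells than in WT CD43-negative SOX17-positive cells of day 12: 9 of 10 genes for mitochondrial chaperones and proteases were higher and 1 lower, where 32.3% of all genes tested were higher and 33.9% lower. HSPD1, the main chaperonin of the matrix, was higher by 2.13 ± 0.16 (adjusted p = 4.0e-12), and HSPA9, a matrix chaperone that also drives protein import, by 1.81 ± 0.10 (adjusted p = 1.7e-14). Of 12 targets of the integrated stress response, 5 were higher and 2 lower, a share called that is near the 66.2% of all genes. MTHFD2, an enzyme of mitochondrial folate metabolism, was higher by 2.77 ± 0.49 (adjusted p = 1.6e-05), and PHGDH, the first enzyme of serine synthesis, was lower, with -0.85 ± 0.19 (adjusted p = 0.00024).

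PPARGC1A and PPARGC1B, coactivators known for inducing mitochondrial biogenesis, moved in opposite directions in that comparison, with -2.12 ± 0.54 (adjusted p = 0.0012) for PPARGC1A and 3.26 ± 0.22 (adjusted p = 3.9e-13) for PPARGC1B. They belong to a list of 9 regulators of mitochondrial biogenesis, whose other genes are not described here. PPARGC1A was also higher in WT SOX17-positive cells of day 7 than in unsorted WT cells of day 4, by 5.47 ± 0.36 (adjusted p = 1.0e-06), and lower at day 2 than at day 0 of the mesoderm protocol, with -2.83 ± 0.38 (adjusted p = 2.1e-06).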
